A study of Caenorhabditis elegans with 24 samples.

Results

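The cytosolic translation elongation factors of Caenorhabditis elegans were followed in adult worms by the level of their mRNA and by the number of ribosome footprints on it. The rule went by name, taking every gene of the count files whose WormBase symbol begins with eef, and 6 of 19669 genes met this rule: eef-1A.1, eef-1A.2, eef-1B.1, eef-1B.2, eef-1G and eef-2. All 6 had enough counts to be tested for mRNA, for footprints and for footprints per mRNA. At 37 °C the mRNA of eef-1A.1, eef-1G and eef-2 was called higher than at 20 °C in both strains (adjusted p under 0.05, edgeR). So was that of 9.76% of all genes tested in wild type and 10.8% in the mutant. The wild-type mRNA calls of eef-2 and eef-1G were lost in some alternative fits. Footprints on all 6 genes were lower in every 37 °C library than in any 20 °C library of the same strain. The same held for 17.3% of all genes tested in wild type and 25.3% in the mutant.

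The study compared 2 strains at 2 temperatures with 2 assays. mRNA sequencing counts the transcripts of each gene, and ribosome profiling counts the short mRNA stretches that ribosomes protect from nuclease digestion, called footprints. The strains were wild type (WT) and a mutant in which metl-5 (C38D4.9), a gene for a methyltransferase of ribosomal RNA, is deleted, and animals of each strain were taken at 20 °C or at 37 °C. Each of the 8 groups of strain, temperature and assay held 3 libraries, 24 in all, and the sources used here give neither the time spent at 37 °C nor the number of animals in a sample. Nothing states that replicates came from separate cultures, so any p-value measures only how these samples spread, which may be technical.

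Translation elongation adds amino acids to the growing protein in a repeated cycle. eEF1A, bound to GTP, brings each aminoacyl-tRNA to the ribosome and leaves bound to GDP. The exchange complex eEF1B, with catalytic subunits and a gamma subunit that holds the complex together, loads eEF1A with GTP again. eEF2 then moves the ribosome along the mRNA by a codon, carries a modified histidine called diphthamide, and is turned down by phosphorylation through eEF2 kinase. These factors are among the most abundant proteins of animal cells. In mammals their mRNAs share with ribosomal protein mRNAs a pyrimidine-rich start through which translation is raised or lowered with growth signals and stress.

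The genes lie apart in the genome (WBcel235, Ensembl annotation). eef-1A.1 (WBGene00001168), one of the eEF1A genes and known by its older name eft-3 for a promoter active in most tissues, is at III:6970026-6971712 on the minus strand, and its paralog eef-1A.2 (WBGene00001169) is at X:7823654-7825769 on the plus strand. Both have a coding length of 1389 bases and encode nearly the same protein, so how reads are divided between them is uncertain. The eEF1B subunit genes are eef-1B.1 (WBGene00018846, III:7972382-7973386, minus strand) and eef-1B.2 (WBGene00012768, IV:15037331-15039551, plus strand), with coding lengths of 639 and 1767 bases. eef-1G (WBGene00008920, V:10965719-10967922, plus strand) encodes the gamma subunit, and eef-2 (WBGene00001167, I:9163531-9166952, plus strand) encodes eEF2. Exons of eef-1A.1 and eef-1G overlap a gene on the opposite strand (F31E3.12 and F17C11.22), those of eef-1B.1 overlap F54H12.9, a noncoding RNA gene on the opposite strand with no row in the counts, and mRNA counts here do not separate strands.

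A level is a gene's counts per 1000000 counts in all genes of that library (CPM). mRNA libraries held 15522050 to 17239906 gene counts, and footprint libraries held 11503305 to 19012050 at 20 °C and 4410194 to 10947947 at 37 °C. The deleted gene metl-5 had 106 to 164 mRNA counts in WT libraries and 36 to 56 in mutant libraries. Its footprints were at 4.44 to 8.40 CPM in WT libraries, at 0.804, 2.48 and 1.04 CPM in the mutant at 20 °C, and at 1.29 CPM in mutant 37 °C replicate 1. The footprint libraries labelled mutant 37 °C replicates 2 and 3 held 7.85 and 5.35 CPM of the deleted gene (53 and 27 counts), at the WT level and against their label. Other footprint libraries also went against their labels in part. The footprint library labelled mutant 20 °C replicate 2 held 5083 CPM of the heat shock gene hsp-70, against 25.5 and 10.8 in the others of its group, and the one labelled WT 37 °C replicate 2 held 6909 CPM against 17602 and 24087. These are called below the 2 libraries that stand between the temperatures. Counts of genes that are at 0 in other libraries of the same strain also appeared in 4 footprint libraries. WT 20 °C replicate 2 and WT 37 °C replicate 3 held cTel55X.1 at 147 and 27 counts, beside 107 and 55 counts of ZK228.4. Mutant 37 °C replicates 2 and 3 held ZK228.4 at 96 and 30 counts, beside 62 and 25 counts of cTel55X.1. In mRNA, cTel55X.1 was at 0 in WT libraries and ZK228.4 was at 0 in mutant libraries. These 4 footprint libraries thus held genes of both strains. Results on footprints are therefore also given without these 6 libraries, which leaves 4 at 20 °C and 2 at 37 °C, so that a lone library is assumed to vary like the other groups. The WT 37 °C library then left, replicate 1, had the fewest counts of all (4410194), and 34.8% of its reads were unmapped, against 2.22 to 6.78% in the other footprint libraries.

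Per kilobase, the levels of the 6 genes spread widely at 20 °C. On the scale of CPM per kilobase of exons, the mean WT mRNA level was 4706 ± 598.4 for eef-1A.1 (SD, n = 3), the highest of the 6, followed by 2566 ± 381 for eef-1B.1, 1589 ± 213 for eef-1G, 1093 ± 215 for eef-2, 548 ± 67.1 for eef-1B.2 and 177 ± 77.2 for eef-1A.2. No neighbours in this order were within 1 SD of each other. Per kilobase of coding length, the mean footprint level in WT at 20 °C was 11918 ± 1047 CPM for eef-1A.1, 2937 ± 278 for eef-2, 1892 ± 362 for eef-1G, 1712 ± 162 for eef-1B.1, 656 ± 192 for eef-1A.2 and 454 ± 66.9 for eef-1B.2. eef-1G and eef-1B.1 lay within 1 SD of each other. Footprints on eef-1A.1 ranked 1 of 19351 genes per kilobase at 20 °C in both strains, and 9 (WT) and 29 (mutant) at 37 °C, whereas its mRNA ranked 57 of 19568 genes at 20 °C and 25 at 37 °C in WT.

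The first comparison asked how heat changed the mRNA of each factor. edgeR's quasi-likelihood test with Benjamini-Hochberg adjustment over 13315 genes called 3 of the 6 genes higher at 37 °C in WT and 3 in the mutant, each time eef-1A.1, eef-1G and eef-2, and none lower. Of all genes tested, 9.76% were called higher in WT and 10.8% in the mutant. The members' median log2 difference was 0.73 in WT and 0.96 in the mutant, beside medians of -0.02 and -0.01 over all genes. Whole worms were measured, so fewer cells of a type and less RNA per cell cannot be told apart.

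eef-1A.1 had WT mRNA levels of 7347, 8091 and 6262 CPM at 20 °C and 12476, 11864 and 15469 CPM at 37 °C. In the mutant they were 6843, 7402 and 6161 CPM at 20 °C and 12291, 13218 and 16957 CPM at 37 °C. Every heated library was above every unheated one. The log2 difference was 1.38 ± 0.275 in WT (SE, adjusted p = 0.00350, edgeR) and 1.67 ± 0.277 in the mutant (adjusted p = 0.000958). Its paralog eef-1A.2 had far lower levels, 494, 326 and 199 CPM at 20 °C and 264, 329 and 353 CPM at 37 °C in WT. In the mutant the eef-1A.2 mRNA stood at 380, 375 and 215 CPM and then at 185, 271 and 272 CPM. The temperatures overlapped in both strains, and replicate 3 was the lowest library at 20 °C in each strain. The log2 difference of eef-1A.2 was 0.36 ± 0.308 in WT (adjusted p = 0.430, edgeR) and 0.19 ± 0.308 in the mutant (adjusted p = 0.697), and it was negative, -0.11 and -0.41, when libraries were scaled by their totals alone.

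Within the exchange complex, the mRNA of the gamma subunit differed from that of the catalytic subunits in its call. eef-1G stood at 2424, 2561 and 1969 CPM at 20 °C and at 3118, 3156 and 3715 CPM at 37 °C in WT. In the mutant it stood at 2431, 2642 and 2038 CPM and then at 3302, 3545 and 3998 CPM. Heated libraries lay above unheated ones in both strains, and the log2 difference was 1.02 ± 0.244 in WT (adjusted p = 0.0103, edgeR) and 1.22 ± 0.245 in the mutant (adjusted p = 0.00342). eef-1B.1 stood at 1994, 1947 and 2524 CPM at 20 °C and at 2157, 2140 and 1962 CPM at 37 °C in WT, and at 1932, 1782 and 2556 and then 2232, 2189 and 2173 CPM in the mutant. eef-1B.2 stood at 1008, 1079 and 1273 CPM at 20 °C and at 1244, 1118 and 1079 CPM at 37 °C in WT, and at 1071, 942 and 1262 and then 1289, 1195 and 1106 CPM in the mutant. For both catalytic subunits the temperatures overlapped, with replicate 3 the highest library at 20 °C. Their log2 differences were 0.44 ± 0.262 and 0.53 ± 0.253 in WT (adjusted p = 0.248 and 0.150, edgeR) and 0.65 ± 0.262 and 0.71 ± 0.254 in the mutant (adjusted p = 0.0919 and 0.0594).

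eef-2 had WT mRNA levels of 3443, 3371 and 2367 CPM at 20 °C and 3785, 3910 and 4617 CPM at 37 °C. In the mutant they were 3061, 3038 and 2488 CPM and then 4026, 4419 and 4865 CPM. The temperatures did not overlap in either strain, with the smallest gap in WT. The log2 difference of eef-2 was 0.92 ± 0.255 in WT (adjusted p = 0.0214, edgeR) and 1.24 ± 0.257 in the mutant (adjusted p = 0.00408). By CPM alone, eef-1A.1, eef-1G and eef-2 were the 3 genes whose heated libraries all lay above the unheated ones in each strain, and 8.01% of all tested genes were above in this way in WT and 8.16% in the mutant.

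**Figure D1:**
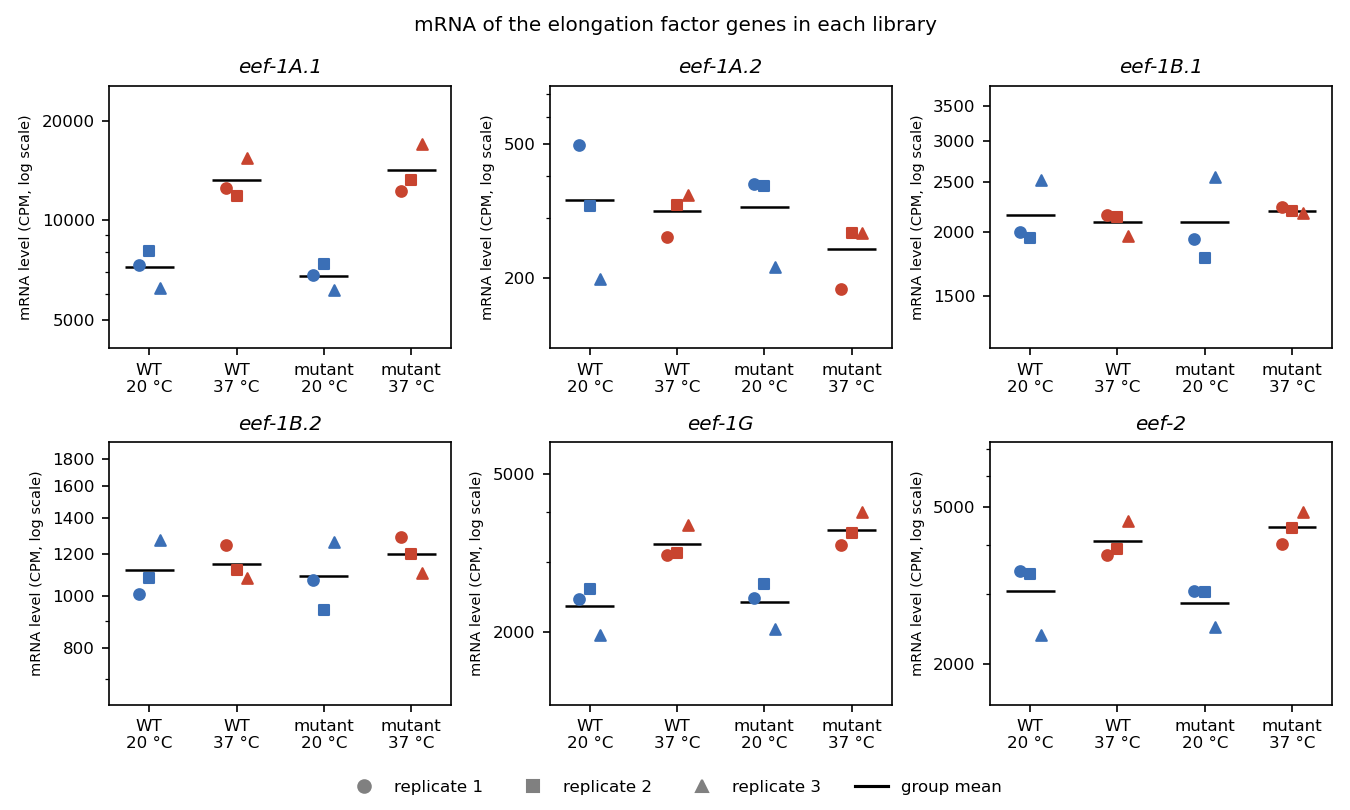
mRNA level (CPM, log axis) of each elongation factor gene in each library, with a marker for each replicate number and a line at the mean of the 3 libraries of a group. The heated libraries of eef-1A.1, eef-1G and eef-2 lie above the unheated ones in both strains, and those of eef-1A.2, eef-1B.1 and eef-1B.2 overlap them.

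The size of these mRNA differences depended on the scaling. Scaling by library totals in place of TMM, chosen after seeing the data, moved the median log2 difference of all genes to -0.49 in WT and -0.60 in the mutant. On that scale eef-1A.1 was higher by 0.88 (adjusted p = 0.00223, edgeR) and eef-1G by 0.52 (adjusted p = 0.0404) in WT, eef-2 was at 0.42 (adjusted p = 0.0969) and eef-1B.1 at -0.05, and all 3 genes called before remained called in the mutant. Over all genes, 1300 were called higher and 1132 lower in WT with TMM, against 627 and 2549 with totals, and in the mutant 1440 and 1220 against 561 and 3248, so that 4.71% and 4.21% of genes were higher with totals. In WT, eef-2 was not called without 20 °C replicate 2 or 3 or 37 °C replicate 1 or 3 (adjusted p = 0.0532 to 0.0958, edgeR), and eef-1G was not called without 20 °C replicate 3 or 37 °C replicate 3 (adjusted p = 0.0506 and 0.0535). When only the WT libraries were fitted, the adjusted p of eef-2 in WT was 0.0640 (edgeR).

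Marker lists of some tissues moved with temperature in the same libraries, and others did not. The summed mRNA of 7 muscle markers was 2953 to 4569 CPM at 20 °C and 4836 to 7943 CPM at 37 °C in WT, and 3221 to 4691 and then 5684 to 8972 CPM in the mutant, and 6 of the 7 were called higher in each strain. That of 6 hypodermis markers was 5796 to 10178 and then 11169 to 15493 CPM in WT and 5801 to 8401 and then 12546 to 15762 CPM in the mutant, with 4 and 5 called higher. That of 8 sperm markers was 1292 to 3308 and then 715 to 859 CPM in WT and 1165 to 3256 and then 668 to 843 CPM in the mutant, with 2 and 3 called lower. That of 9 germline markers was 2780 to 5052 and then 1532 to 3376 CPM in WT, where the temperatures overlapped. In the mutant it was 3639 to 5538 and then 2145 to 3319 CPM, and 1 germline marker was called higher in each strain. The sums are CPM by library totals, whereas the calls use TMM, so a sum and a call can differ in direction. The summed mRNA of the neuron markers, the yolk genes and the oocyte markers overlapped between the temperatures in both strains. In WT the neuron sum was 174 to 282 and then 201 to 315 CPM. The WT yolk sum was 15467.5 to 18341 and then 16343 to 18859 CPM. None of these markers was at 0 in any library, and their part in the differences of the elongation factors was not tested.

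The second comparison asked how heat changed the ribosome footprints on the same genes. By CPM, all 6 genes had every heated library below every unheated one in both strains, which held for 17.3% of the genes tested in WT and 25.3% in the mutant. edgeR, in a fit that did not pair libraries by number, called 1 of the 6 genes, eef-1A.2, lower in WT. It called all 6 lower in the mutant, and none higher. Of 12387 genes tested, 6.93% were called lower in WT and 14.7% in the mutant. The members' median log2 difference was -1.37 in WT and -1.96 in the mutant, beside -0.03 and -0.05 over all genes. A call in one strain and not in the other does not show that the strains differ: the test of that difference, given below, called none of the 6.

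eef-1A.1 held 15027, 17923 and 16712 CPM of footprints at 20 °C and 3271, 14253 and 4530 CPM at 37 °C in WT. In the mutant it held 16113, 14555 and 16758 CPM and then 4122, 7359 and 4718 CPM. The WT 37 °C replicate 2, which stands between the temperatures, was close to the unheated level, and the other heated libraries were at 7359 CPM or below. The log2 difference of eef-1A.1 was -1.25 ± 0.461 in WT (SE, adjusted p = 0.0704, edgeR) and -1.64 ± 0.466 in the mutant (adjusted p = 0.0248). eef-1A.2 held 1058, 604 and 1071 CPM at 20 °C and 369, 527 and 265 CPM at 37 °C in WT, and 650, 491 and 1082 and then 215, 361 and 274 CPM in the mutant. Its heated libraries were below the unheated ones by a narrow margin, and the log2 difference was -1.33 ± 0.377 in WT (adjusted p = 0.0377, edgeR) and -1.49 ± 0.379 in the mutant (adjusted p = 0.0179).

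In the exchange complex, eef-1B.1 held 975, 1168 and 1138 CPM of footprints at 20 °C and 102, 777 and 97.0 CPM at 37 °C in WT. In the mutant it held 1086, 851 and 1250 CPM and then 95.0, 163 and 96.8 CPM. Its footprints were at 95.0 to 102 CPM in 4 of the 6 heated libraries, and WT replicate 2 was again the highest. The log2 difference of eef-1B.1 was -1.83 ± 0.646 in WT (adjusted p = 0.0636, edgeR) and -3.26 ± 0.684 in the mutant (adjusted p = 0.0121), the lowest value of the 6 genes in each strain. eef-1B.2 held 665, 871 and 869 CPM and then 135, 633 and 191 CPM in WT, and 815, 706 and 1006 and then 143, 201 and 210 CPM in the mutant. eef-1G held 1826, 2382 and 2694 CPM and then 312, 1788 and 404 CPM in WT, and 2198, 1868 and 2938 and then 380.5, 709.9 and 454 CPM in the mutant. In both, WT replicate 2 was the highest heated library and lay near the unheated level. The log2 differences of eef-1B.2 and eef-1G were -1.41 ± 0.465 and -1.55 ± 0.552 in WT (adjusted p = 0.0532 and 0.0651, edgeR) and -2.28 ± 0.479 and -2.28 ± 0.566 in the mutant (adjusted p = 0.0121 and 0.0170).

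eef-2, the translocation factor, had the smallest footprint differences of the 6 genes. It held 6932, 7289 and 8301 CPM of footprints at 20 °C and 3817, 6093 and 4877 CPM at 37 °C in WT. In the mutant it held 7079, 6038 and 8749 CPM and then 4215, 3872 and 5249 CPM. No heated library reached an unheated one of its strain. The log2 difference of eef-2 was -0.70 ± 0.269 in WT (adjusted p = 0.0800, edgeR) and -0.81 ± 0.270 in the mutant (adjusted p = 0.0425). Summed over the 6 genes, footprints took 2.92% of gene counts in WT at 20 °C and 1.41% at 37 °C, where the 3 libraries held 0.801, 2.41 and 1.04%, and 2.81 and then 1.09% in the mutant. Their summed mRNA took 1.62% and then 2.43% in WT, and 1.55% and then 2.58% in the mutant. In the same libraries the summed footprints of the 6 hypodermis markers lay between 5237 and 7899 CPM at 20 °C and between 470.2 and 3454 CPM at 37 °C in WT, and at 4628 to 7479 and then 606 to 1772 CPM in the mutant, with 3 of 6 called lower in each strain. Those of 6 yolk genes, made in the adult intestine, lay between 30506 and 38839 CPM and then between 6806 and 25016 CPM in WT, with 0 called lower, and at 29378 to 45427 and then 8035 to 19720 CPM in the mutant, with 5 called lower. Those of the 8 sperm markers were at 358 to 449 and then 189 to 319 CPM in WT and 294 to 420 and then 218 to 248 CPM in the mutant, with 3 and 4 called lower and 0 and 1 higher. Those of 9 germline markers were at 5305 to 7688 and then 7870 to 12084 CPM in WT and 6386 to 7625 and then 8001 to 12077 CPM in the mutant, with 2 and 3 called higher and 0 and 1 lower. The summed footprints of the muscle, neuron and oocyte markers overlapped between the temperatures in both strains. The part of the markers in the footprint values of the elongation factors, and that of the lower depth at 37 °C, was not tested.

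**Figure D2:**
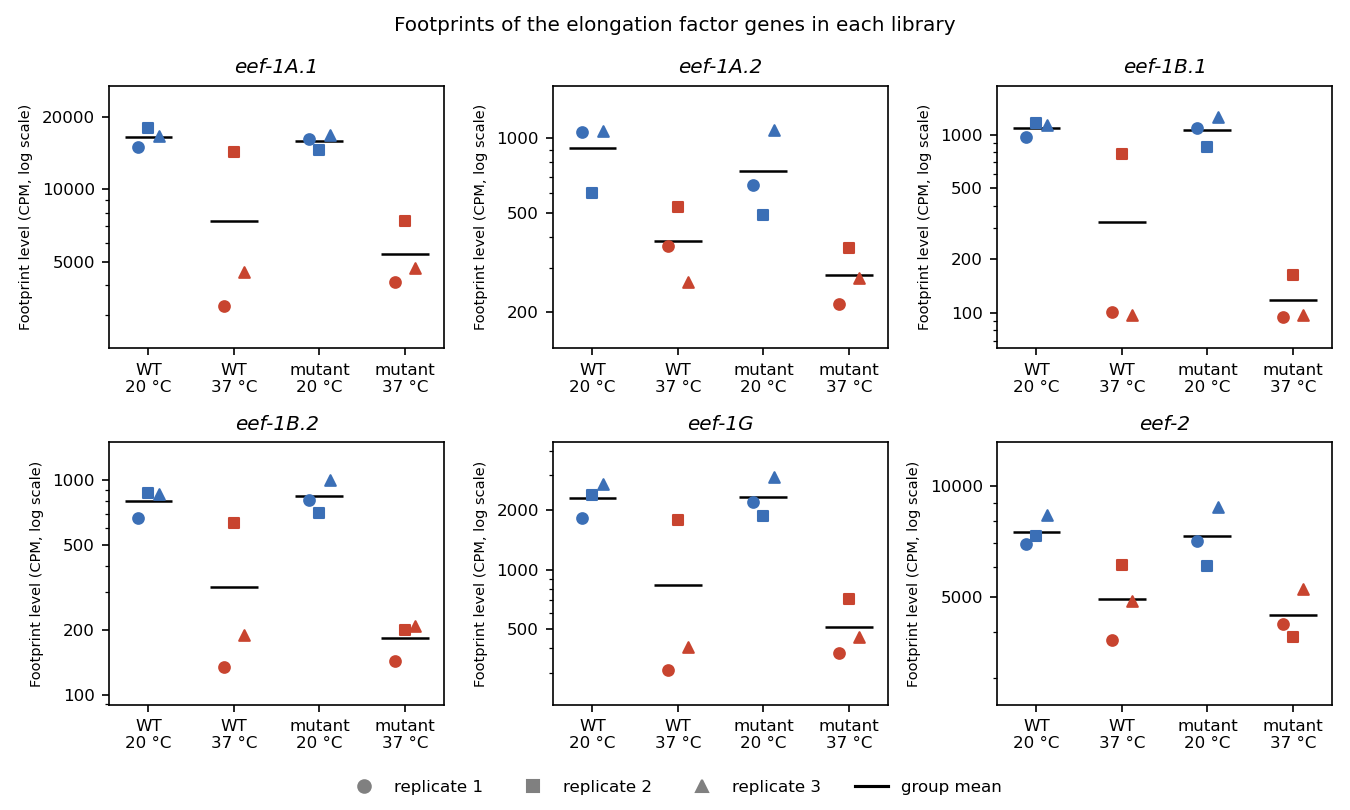
Ribosome footprints (CPM, log axis) on each elongation factor gene in each library, with a marker for each replicate number and a line at the mean of the 3 libraries of a group. All heated libraries lie below the unheated ones of the same strain, and WT 37 °C replicate 2 lies nearest to them for every gene.

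The number of WT footprint calls turned on single libraries and on the fit. Same-numbered footprint libraries of a strain deviated together across the temperatures, and with the replicate number as a block all 6 genes were called lower in WT, with adjusted p from 0.0295 for eef-1B.2 to 0.0490 for eef-2 (edgeR) and 14.3% of all genes called lower. Without WT 37 °C replicate 2, all 6 were called, and the log2 differences were -2.18 for eef-1A.1, -3.56 for eef-1B.1 and -0.89 for eef-2, while 19.7% of all genes were called lower. When the fit held only WT footprint libraries, 0 of the 6 were called in WT, 5 had an unadjusted p under 0.05, and edgeR called 118 genes in all, 0.00835% of those tested being lower. The call of eef-1A.2 in WT was also lost without mutant 20 °C replicate 1, WT 20 °C replicate 1 or 3, or WT 37 °C replicate 1 or 3 (adjusted p = 0.0554 to 0.157, edgeR). Without mutant 20 °C replicate 1 or 3 none of the 6 was called in the mutant. There were 2 without mutant 37 °C replicate 1 and 1 without mutant 37 °C replicate 3. eef-2 alone was lost without mutant 37 °C replicate 2 or without any 1 of the WT 20 °C libraries (adjusted p of lost calls = 0.0506 to 0.160, edgeR). With 1 library left out, the log2 difference in the mutant was -3.57 to -3.09 for eef-1B.1 and -0.97 to -0.62 for eef-2. Shares of all genes called in these reduced fits of the mutant are not given here. The lost calls are therefore not read as a result about these genes. Without the 6 libraries named above, all 6 genes were called lower in both strains, with log2 differences of -3.56 for eef-1B.1 and -1.18 for eef-2 in WT and of -3.81 and -1.10 for the same genes in the mutant, while 12.5% and 13.2% of all genes were called lower; in WT these values rest on 37 °C replicate 1, the library with 34.8% of reads unmapped.

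**Figure D3:**
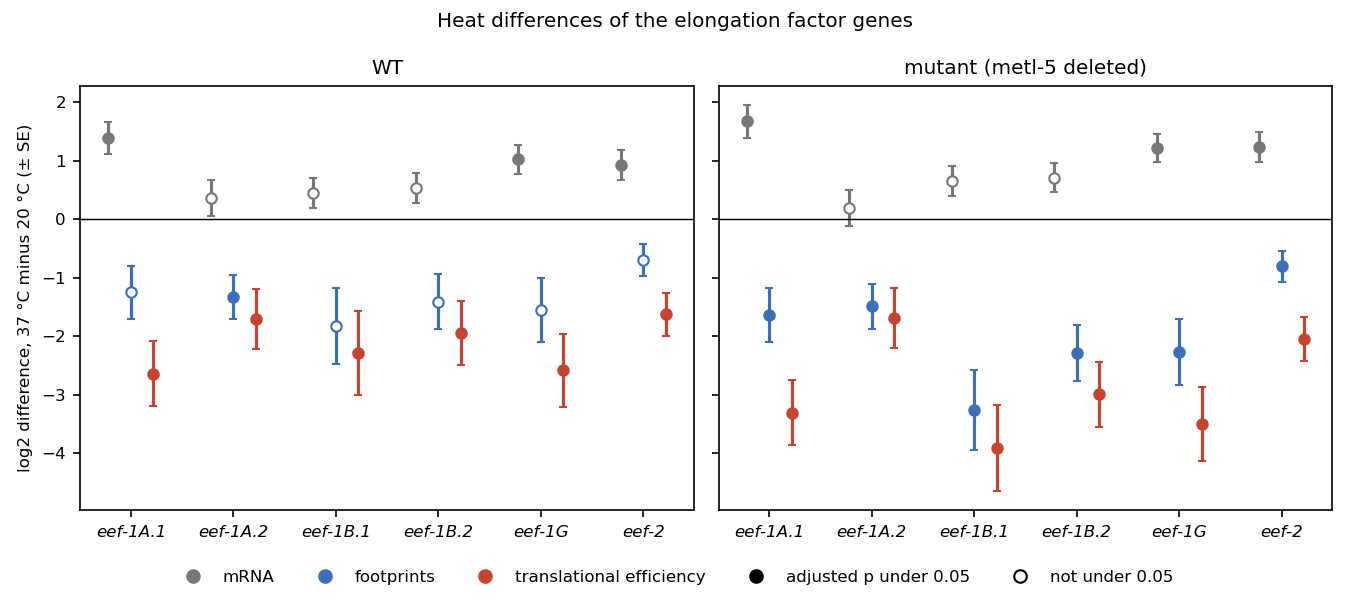
log2 difference between 37 and 20 °C (± SE, from edgeR) of mRNA, footprints and footprints per mRNA for each elongation factor gene, in a panel for each strain; filled points have an adjusted p under 0.05. All mRNA values are above 0, all footprint values are below 0, and footprints per mRNA are called lower for all 6 genes in both strains.

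The third comparison set footprints against mRNA, as the log2 ratio of footprints to mRNA (translational efficiency), tested in a single edgeR model over all 24 libraries, which are the same libraries as above. All 6 genes fell in both strains, and of 12079 genes tested 8.68% were called lower in WT and 10.4% in the mutant. The members' median log2 difference was -2.12 in WT and -3.15 in the mutant, beside -0.06 and -0.13 over all genes. The ratio is not a count of ribosomes per molecule, since the assays were scaled apart, so each value is placed among the other genes.

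At 20 °C the genes differed in where they stood. The log2 ratio of eef-2 was 1.54 ± 0.265 in WT (SE), the 83.1 percentile of all genes, that of eef-1A.1 was 1.44 ± 0.392 (percentile 81.0) and that of eef-1A.2 was 1.66 ± 0.368 (percentile 85.3). Those of the exchange complex were lower, 0.24 ± 0.434 for eef-1G (percentile 48.0), -0.24 ± 0.384 for eef-1B.2 (percentile 34.2) and -0.74 ± 0.506 for eef-1B.1 (percentile 22.5). At 20 °C the mutant ratios were 1.75, 1.61, 1.62, 0.38, 0.00 and -0.60 in the same order of genes, each within 1 SE of WT.

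At 37 °C the log2 ratio of eef-1A.1 was -1.21 ± 0.390 in WT (percentile 15.8) and -1.70 ± 0.395 in the mutant (percentile 10.8). Its log2 difference between temperatures was -2.65 ± 0.553 in WT (adjusted p = 0.00280, edgeR) and -3.31 ± 0.558 in the mutant (adjusted p = 0.000630). eef-1A.2 stood at -0.04 ± 0.359 (percentile 42.2) and -0.07 ± 0.359 (percentile 42.3), with a difference of -1.70 ± 0.511 in WT (adjusted p = 0.0224, edgeR) and -1.69 ± 0.511 in the mutant (adjusted p = 0.0219). Of the pair of eEF1A genes, eef-1A.2, with the lower level, had the higher ratio at 37 °C, and a test between the 2 genes on this ratio was not made.

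The exchange complex genes stood among the lowest ratios of all genes at 37 °C. eef-1B.1 was at -3.03 ± 0.544 in WT (percentile 2.42) and -4.51 ± 0.583 in the mutant (percentile 0.629), with differences of -2.28 ± 0.721 (adjusted p = 0.0294, edgeR) and -3.91 ± 0.738 (adjusted p = 0.00120). eef-1B.2 was at -2.20 ± 0.401 (percentile 5.84) and -2.99 ± 0.414 (percentile 2.99), with differences of -1.95 ± 0.547 (adjusted p = 0.0153, edgeR) and -2.995 ± 0.554 (adjusted p = 0.00105). eef-1G was at -2.35 ± 0.455 (percentile 4.91) and -3.11 ± 0.470 (percentile 2.55), with differences of -2.58 ± 0.623 (adjusted p = 0.00652, edgeR) and -3.50 ± 0.631 (adjusted p = 0.000930). At 37 °C eef-2 stood near the middle of all genes, at -0.09 ± 0.259 in WT (percentile 41.0) and -0.30 ± 0.260 in the mutant (percentile 36.1), with differences of -1.63 ± 0.369 (adjusted p = 0.00444, edgeR) and -2.05 ± 0.371 (adjusted p = 0.000946).

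**Figure D4:**
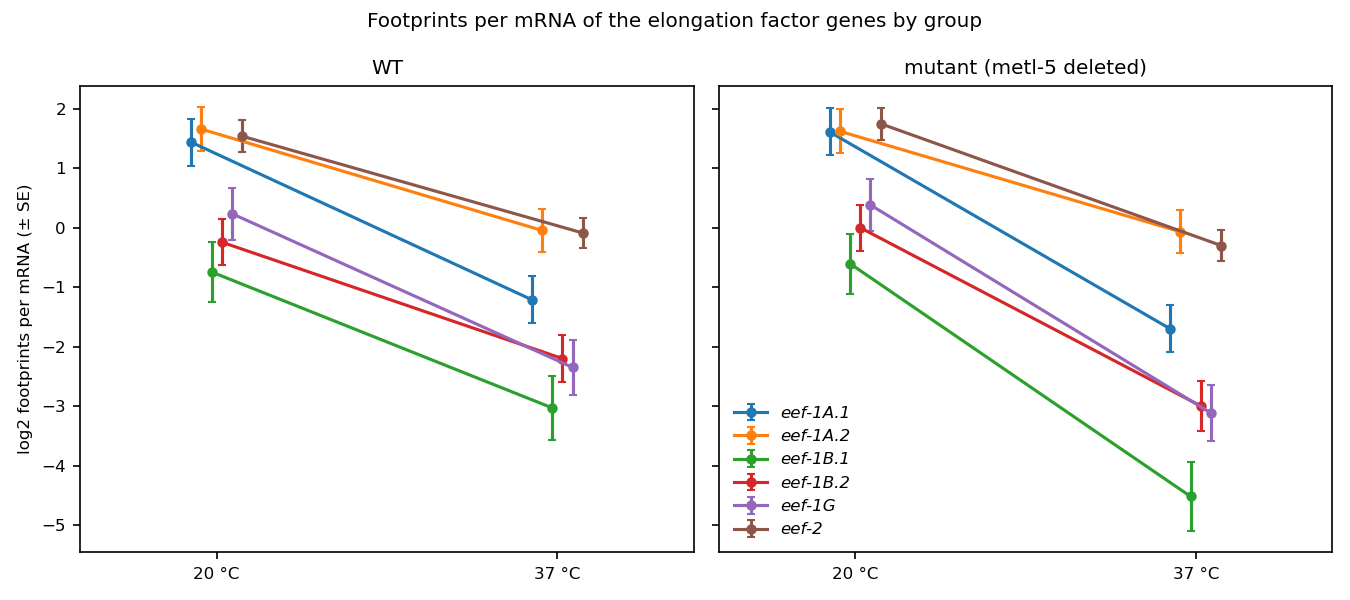
log2 footprints per mRNA (± SE, from edgeR) of each elongation factor gene at 20 and 37 °C, in a panel for each strain. The lines of all 6 genes go down, and at 37 °C eef-1A.2 and eef-2 lie highest and eef-1B.1 lowest, at -3.03 in WT and -4.51 in the mutant.

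Without the 6 libraries named above, all 6 genes were called lower in both strains, and the fall of eef-1B.1 in WT was larger (-3.99), while 6.51% of all genes were called lower in WT and 7.22% in the mutant. With library totals in place of TMM the median of all genes moved to 0.50 in WT and 0.54 in the mutant, and 2356 genes were called higher and 439 lower in WT against 1297 and 1049 with TMM (2561 and 500 against 1260 and 1255 in the mutant), so that 3.63% and 4.14% were lower with totals. On that scale eef-1A.1, eef-1G and eef-2 were called lower in WT, at -2.04, -1.98 and -1.03, the adjusted p of the other 3 was 0.0506 to 0.105 (edgeR), and in the mutant all but eef-1A.2 (adjusted p = 0.154) were called. When only the WT libraries were fitted, eef-1B.1 and eef-1B.2 were not called in WT (adjusted p = 0.0854 and 0.0565, edgeR). In WT, leaving out footprint 37 °C replicate 3 lost eef-1A.2, eef-1B.1 and eef-1B.2 (adjusted p = 0.0568 to 0.0773, edgeR). eef-1B.1 was also lost without mRNA 20 °C replicate 2, mRNA 37 °C replicate 1 or 3, footprint 20 °C replicate 3 or footprint 37 °C replicate 1, and eef-1A.2 without mRNA 20 °C replicate 2 or 3, mRNA 37 °C replicate 3 or footprint 20 °C replicate 1 or 3 (adjusted p = 0.0505 to 0.0710, edgeR). In the mutant, eef-1A.2 was lost without replicate 3 of any of its 4 groups or footprint 37 °C replicate 1 (adjusted p = 0.0514 to 0.0912, edgeR).

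Ratios between the genes within a library do not depend on how libraries are scaled. For each pair of the 6 genes, the mean log2 ratio was compared between the 6 heated and 6 unheated libraries of an assay by an exact two-sided permutation test that exchanged temperature within each strain, with 400 regroupings, a smallest possible p of 0.005 and adjustment over 30 ratios. These ratios were looked at after the levels were known. The adjusted p was under 0.05 for 10 of 15 pairs in mRNA and 10 of 15 in footprints. This regrouping ignores the pairing of footprint libraries by number. Exchanging temperature only within the 6 same-numbered pairs (64 patterns, smallest possible two-sided p 0.03125) was chosen after seeing the data. Adjusted over the 15 footprint ratios alone, it left 12 of 15 with an adjusted p of 0.0391 (exact permutation test), all at that smallest p. They were the same 10 ratios and those of eef-1A.2 to eef-1B.2 and to eef-1G. With so high a smallest p, a ratio could pass only where most of the 15 reached it together. The 2 added ratios could therefore not have passed on their own. The 15 ratios come from 6 genes and depend on each other, so these are not counts of separate results. Same-numbered footprint libraries of the strains also correlated with each other, at r of 0.308 to 0.601 at 37 °C and 0.321 to 0.558 at 20 °C. The 6 pairs are therefore not fully independent. Those of mRNA correlated between the strains too, at r of 0.220 to 0.490 at 37 °C and 0.146 to 0.514 at 20 °C. The mRNA libraries compared are thus not fully independent either, and their p-values may be too small. In mRNA, eef-1A.1 relative to eef-2 was higher at 37 °C by 0.42 (log2, 6 against 6 libraries, adjusted p = 0.0167, exact permutation test), and in footprints it was at -0.86 (adjusted p = 0.0375, exact permutation test). eef-1B.1 relative to eef-2 differed by -0.51 in mRNA (adjusted p = 0.0167, exact permutation test) and by -2.16 in footprints (adjusted p = 0.0167, exact permutation test). In footprints its log2 ratio to eef-2 was -2.87 to -2.64 in the 6 unheated libraries and -5.76 to -2.97 in the 6 heated ones, where WT replicate 2 gave the highest value.

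Within the exchange complex, the footprint ratios of eef-1B.1 to its partners were lower at 37 °C. Relative to eef-1G it differed by -0.78 in footprints (adjusted p = 0.0176, exact permutation test) and by -0.54 in mRNA (adjusted p = 0.0176, exact permutation test). eef-1B.1 relative to eef-1B.2 differed by -0.91 in footprints (adjusted p = 0.0167, exact permutation test) and by -0.06 in mRNA (adjusted p = 0.228, exact permutation test). eef-1B.2 relative to eef-1G was within the spread in footprints, at 0.13 (adjusted p = 0.421, exact permutation test), and at -0.48 in mRNA (adjusted p = 0.0316, exact permutation test). eef-1G relative to eef-2 was at 0.03 in mRNA (adjusted p = 0.466, exact permutation test) and -1.38 in footprints (adjusted p = 0.0176, exact permutation test). Without the 6 libraries the footprint differences of eef-1A.1 and of eef-1B.1 relative to eef-2 were -1.19 and -2.55, with no test.

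Among the paralogs, eef-1A.2 made up 4.42 ± 1.68% of the mRNA counts of both eEF1A genes in WT at 20 °C (SD, n = 3) and 2.33 ± 0.325% at 37 °C. In log2 terms eef-1A.1 relative to eef-1A.2 was higher by 1.17 in heated mRNA libraries (adjusted p = 0.0167, exact permutation test), and its footprints were at -0.24 (adjusted p = 0.466, exact permutation test). Reads mapped to several places were left out of the counts and made up 5.67 to 9.70% of the reads of mRNA libraries and 7.32 to 16.9% of those of footprint libraries. Of the footprint counts of both catalytic eEF1B genes, eef-1B.2 made up 42.2% in WT at 20 °C and 56.1% at 37 °C, and 44.3 and then 61.3% in the mutant. Of their mRNA counts it made up 34.3 and then 35.5% in WT, and 34.4 and then 35.2% in the mutant.

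**Figure D5:**
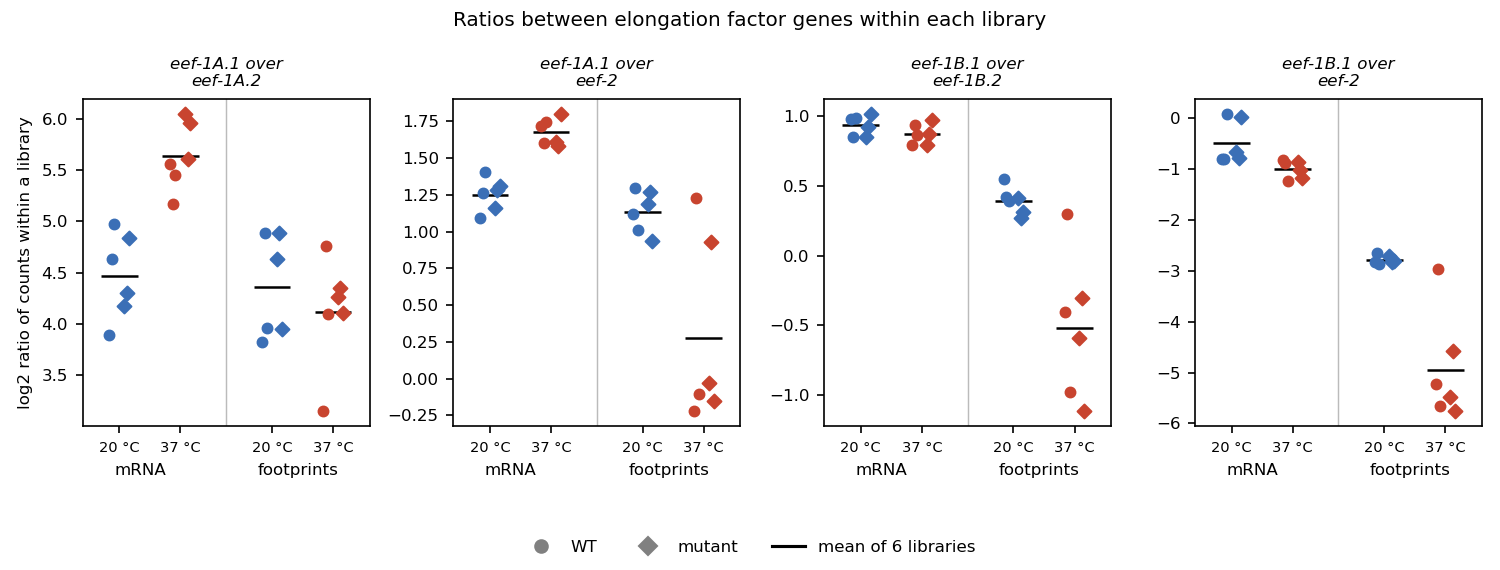
log2 ratio of counts between 4 pairs of elongation factor genes within each library, for mRNA and footprints at 20 and 37 °C; circles are WT libraries, diamonds are mutant libraries and lines are means of 6 libraries. eef-1A.1 over eef-2 is higher at 37 °C in mRNA (by 0.42) and lower in footprints (by -0.86), and eef-1B.1 over eef-2 in footprints has the largest difference of the 4 pairs, -2.16.

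The fourth comparison asked whether loss of metl-5 changed the elongation factors. edgeR called 0 of the 6 genes between the strains at 20 °C, at 37 °C, averaged over both or as a difference between the heat responses of the strains (the interaction), for mRNA, footprints or footprints per mRNA, and DESeq2 called 0 as well. Over all genes edgeR called 0.03% at 20 °C, 0.03% at 37 °C and 0.0751% averaged over temperatures for mRNA. In the other 9 comparisons it called 0 genes, with 48 to 272 genes at an unadjusted p under 0.05, and DESeq2 called 0 to 3. Those counts are below the share of 0.05 expected with no strain difference, so these tests were conservative. Same-numbered libraries correlated between the strains (in mRNA at r of 0.146 to 0.514 at 20 °C), which the main fits left out. Fits with the replicate number as a block also called 0 of the 6. Calling 0 does not show that the strains are alike. The strain comparisons use the same libraries as the heat comparisons. Among them are the footprint libraries labelled mutant 37 °C replicates 2 and 3, which held the deleted gene at the WT level (7.85 and 5.35 CPM). The same libraries also held cTel55X.1 (62 and 25 counts), a gene at 0 in the WT mRNA libraries. Strain comparisons of footprints and of footprints per mRNA that include 37 °C rest on these labels. They therefore cannot show whether loss of metl-5 has an effect there. The footprint groups at 20 °C also hold libraries that went against their labels in part. WT 20 °C replicate 2 held cTel55X.1 at 147 counts, and mutant 20 °C replicate 2 held hsp-70 at 5083 CPM. Footprint differences between the strains at 20 °C are limited by this as well. For mRNA the members' log2 differences between mutant and WT ran from -0.22 for eef-2 to -0.10 for eef-1G at 20 °C and from -0.39 for eef-1A.2 to 0.10 for eef-1G at 37 °C. For footprints at 20 °C they ran from -0.25 for eef-1A.2 to 0.11 for eef-1B.2, and the interaction for mRNA ran from -0.17 for eef-1A.2 to 0.31 for eef-2. At 20 °C and for mRNA, no member had an unadjusted p under 0.05 in edgeR or DESeq2.

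At 37 °C all 6 footprint differences between mutant and WT were negative, from -1.43 ± 0.641 for eef-1B.1 (SE) to -0.12 for eef-2, and eef-1B.1 alone had an unadjusted p under 0.05 (0.0436, edgeR). That value rested on WT 37 °C replicate 2, which held 777 CPM of eef-1B.1 where the other heated libraries of both strains held 95.0 to 163 CPM. Without the 2 libraries that stand between the temperatures, 5 of the 6 differences were positive and eef-1B.1 was at 0.31. In the authors' deposited table of footprints at 37 °C the log2 fold changes were 0.50 for eef-1A.1, 0.56 for eef-1G, 0.30 for eef-1B.1, 0.22 for eef-1B.2, 0.07 for eef-2 and -0.11 for eef-1A.2, with adjusted p-values of 1. The base means in the authors' deposited table differed by a median of 0.134% from means over the 10 libraries without those 2, and by 3.93% from means over all 12, so these fold changes set beside -1.43 come from fewer libraries. For footprints per mRNA, eef-1B.1 at 37 °C was at -1.49 (unadjusted p = 0.0495, edgeR) and the others were closer to 0. The interaction for footprints ran from -1.43 for eef-1B.1 to -0.11 for eef-2, and for footprints per mRNA from -1.63 for eef-1B.1 to 0.01 for eef-1A.2, with no member at an unadjusted p under 0.05 in either tool.

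Genes of a list of cytosolic elongation helpers, not all of which act on the elongation factors themselves, were read in the same fits. Of 12 such genes, 4 were called higher in mRNA at 37 °C in WT and 6 in the mutant, 2 and 3 were called higher in footprints, 2 were called lower in footprints in the mutant, and 4 were called lower in footprints per mRNA in each strain. Over all genes, 9.76% and 10.8% were higher in mRNA, 9.78% and 12.2% higher and 6.93% and 14.7% lower in footprints, and 8.68% and 10.4% lower in footprints per mRNA. efk-1, which encodes eEF2 kinase, rose in both assays. Its mRNA was 84.3 ± 20.7 CPM at 20 °C and 148 ± 22.6 CPM at 37 °C in WT (SD, n = 3), and its footprints were 63.1 ± 8.62 and then 124 ± 7.92 CPM. The log2 difference of efk-1 was 1.30 in mRNA (adjusted p = 0.000888, edgeR) and 0.89 in footprints (adjusted p = 0.0328) in WT, and 1.25 and 1.04 in the mutant (adjusted p = 0.00109 and 0.0132). Its footprints per mRNA were at -0.42 in WT (adjusted p = 0.380, edgeR) and -0.21 in the mutant (adjusted p = 0.688).

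The 4 genes called lower in footprints per mRNA in both strains were iff-1, iff-2, tct-1 and abcf-3, an ABC-F ATPase. iff-1 and iff-2 encode eIF5A, which helps stalled ribosomes form peptide bonds, and tct-1 encodes the worm TCTP, known in other animals to bind eEF1A and its exchange factor. The mRNA of tct-1 rose by 1.26 in WT (log2, adjusted p = 0.00528, edgeR) and 1.48 in the mutant (adjusted p = 0.00175), and its footprints per mRNA were at -1.78 (adjusted p = 0.00338) and -2.18 (adjusted p = 0.000872). Footprints per mRNA of iff-1 were at -1.95 in WT (adjusted p = 0.0157, edgeR) and -2.94 in the mutant (adjusted p = 0.00117), and those of iff-2 at -2.12 (adjusted p = 0.0342) and -2.50 (adjusted p = 0.0139). The mRNA of iff-1 and iff-2 was not called in WT (adjusted p = 0.126 and 0.0800, edgeR) and rose by 0.90 and 1.81 in the mutant (adjusted p = 0.0193 and 0.0343). For abcf-3, mRNA rose by 0.82 in WT (adjusted p = 0.0215, edgeR) and 0.84 in the mutant (adjusted p = 0.0172), and its footprints per mRNA were at -1.57 (adjusted p = 0.00456) and -1.80 (adjusted p = 0.00161). Of 6 genes for diphthamide synthesis, 1 was called in mRNA in each strain, dph-3, which rose by 0.66 in WT (log2, adjusted p = 0.0367, edgeR) and by 0.61 in the mutant (adjusted p = 0.0470). In footprints dph-1 was higher by 0.84 in WT (adjusted p = 0.0397, edgeR) and 0.85 in the mutant (adjusted p = 0.0252), and dph-5 by 0.80 in the mutant (adjusted p = 0.0377).

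The cytosolic ribosomal proteins, the other large group of the translation machinery, gave the following counts in the same fits. Of 74 genes, 24 were called higher in mRNA in WT and 47 in the mutant, 5 and 22 were called lower in footprints, and 52 and 56 were called lower in footprints per mRNA, with none called the other way. Their median log2 difference of footprints per mRNA was -1.41 in WT and -1.64 in the mutant, beside the elongation factors' -2.12 and -3.15. Of 31 initiation factors, 4 were called lower and none higher in footprints per mRNA in WT, and 5 lower and 3 higher in the mutant. Of 30 aminoacyl-tRNA synthetases, 3 were lower and 4 higher in WT, and 5 lower and 4 higher in the mutant. Over all genes 8.68% were lower and 10.7% higher in WT, and 10.4% lower and 10.4% higher in the mutant. Of the 4 mitochondrial elongation factors, which act on the separate ribosomes of that organelle, 2 were lower and 1 higher in WT and 1 was lower in the mutant.

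The genes whose levels followed the mean profile of the 6 elongation factors most closely were ranked by Pearson's r over the 12 libraries of an assay. In mRNA the first were rla-0 (r = 0.994), cps-6 (0.994), rps-22 (0.991), rps-6 (0.989) and cyc-2.1 (0.988), and in footprints ndk-1 (0.997), alh-1 (0.996), acs-1 (0.996), abcf-2 (0.995) and rla-1 (0.995). rla-0 and rla-1 encode proteins of the ribosomal stalk, where the elongation factors bind, and rps-6 and rps-22 encode proteins of the small subunit. Among the elongation factors themselves, r to that mean, which each of them is part of and which is raised by this, was 0.560 for eef-1A.2 and 0.818 to 0.990 for the others in mRNA, and 0.919 to 0.995 in footprints. These correlations describe 12 libraries that share temperature, strain and depth.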

How the data were processed

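The authors deposited raw read counts per gene for each library, in the layout of STAR gene counts, per the file headers and values. The submitters' processing notes name STAR and DESeq2 but no version, and the aligner options, build and annotation behind the counts were not given in the sources used here. Unstranded counts were used for mRNA, where 50.5 to 50.9% of stranded counts were sense, and sense counts for footprints (99.6 to 99.9%). The authors' deposited comparison tables hold log2 fold changes, p-values and base means (a signal averaged over normalized libraries), per the file headers; only their log2 fold changes and adjusted p-values are quoted, and base means were compared with means of unstranded counts scaled by median-of-ratios size factors. Gene places come from the WBcel235 annotation, matched by gene ID.

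Low counts were filtered by filterByExpr, TMM scaled the libraries within each assay, and edgeR 4.0.16 (R 4.3.3) was fitted to all groups of an assay, with Benjamini-Hochberg adjustment at 0.05. Footprints per mRNA were tested as the assay by condition term of a model over 24 libraries. DESeq2 1.42.0 and limma 3.58.1 were alternatives. The methods were tested on simulated data. Same-numbered footprint libraries of a strain correlated across temperatures at r of 0.207 to 0.509 in WT and 0.157 to 0.303 in the mutant. The main fits left this pairing out, and the replicate number as a block was an alternative fit. Counting error sets the precision of low counts, and the fewest footprint counts per library were at 37 °C.

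All genes whose symbol begins with eef were named, together with efk-1, iff-1, iff-2 and tct-1. Of each further list, at most 3 called genes per heat comparison were named, by smallest p. The members and lists were chosen with earlier results of these data known. Genes used to check labels, and the ratios within libraries, were chosen after values were seen.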

Additional observations from a re-analysis of the deposited data

How the results depend on the processing

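The number of elongation factor genes called by heat moved by over 1.5 times in these alternatives. For mRNA in the mutant it was 5 with DESeq2 and with a replicate block, and the block also called 4 in WT. mRNA numbers were not taken to pair libraries across temperatures. The lowest same-number correlation across temperatures was -0.0270 in WT and 0.00601 in the mutant, though same-numbered mRNA libraries correlated between the strains. For footprints in WT it was 6 with DESeq2, with the replicate block, without the 6 libraries that hold counts of genes at 0 in other libraries of their strain or stand between the temperatures and without the 2 that stand between them, and 0 with only the compared groups. For footprints per mRNA in WT it was 3 with library totals. The block changed no other count by over 1.5 times. Leaving out 1 library gave 1 to 3 called genes for mRNA in WT, 3 to 5 in the mutant, 0 to 6 for footprints in WT and in the mutant, and 3 to 6 for footprints per mRNA in WT. Of all genes, 14.3% were called lower for WT footprints with the block and 0.00835% with only the compared groups. For footprints per mRNA in WT, 3.63% were called lower with library totals. Shares of all genes with DESeq2, with the mRNA block and for most fits that left out libraries are not given here. Counts of members in those fits are therefore not read as results about these genes. The cause was not tested.

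Among the heat comparisons, 3 of 312 gene values changed sign, all for mRNA with library totals: eef-1B.1 (-0.047) and eef-1A.2 (-0.11) in WT and eef-1A.2 (-0.41) in the mutant. None of 576 did when 1 library was left out. Footprints of eef-2 in the mutant were not called with no filter on low counts (adjusted p = 0.0513, edgeR), nor was the ratio of eef-1A.2 in the mutant with limma on same-numbered differences (adjusted p = 0.0554).

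Strain differences, none called, changed sign in 71 of 588 values, and in 129 of 1152 when 1 library was left out. After this was seen, single values were kept for the lowest and highest member of each comparison. With library totals, eef-1G mRNA at 20 °C was 0.032. Without the 6 libraries, footprints of eef-2 were 0.20 at 37 °C and 0.082 in the interaction, and the ratio of eef-1A.2 in the interaction was -0.31. Without the 2 libraries, footprints of eef-1A.2 at 20 °C were 0.0068, those of eef-2 and eef-1B.1 at 37 °C 0.080 and 0.31 and that of eef-1B.1 in the interaction 0.14, and the ratio of eef-1A.2 was 0.21 at 20 °C and 0.27 at 37 °C and that of eef-1B.1 0.24 at 37 °C. The ratio of eef-1A.2 was 0.0055 at 37 °C with limma, and in the interaction -0.00087 with DESeq2 and -0.0036 with no filter.

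Leaving out 1 library gave these ranges. For mRNA they were -0.054 to 0.22 for eef-1G at 37 °C and -0.60 to 0.11 for eef-1A.2 in the interaction. For footprints they were -0.079 to 0.27 for eef-1B.2 and -0.67 to 0.016 for eef-1A.2 at 20 °C, -0.29 to 0.072 for eef-2 and -1.88 to 0.30 for eef-1B.1 at 37 °C, and -0.30 to 0.080 for eef-2 and -1.88 to 0.30 for eef-1B.1 in the interaction. For footprints per mRNA they were -0.47 to 0.23 for eef-1A.2 at 20 °C, -1.92 to 0.24 for eef-1B.1 and -0.24 to 0.28 for eef-1A.2 at 37 °C, and -2.06 to 0.10 for eef-1B.1 and -0.26 to 0.44 for eef-1A.2 in the interaction. With 3 libraries a group, each fit pools its spread over all groups.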
